A study of Mus musculus with 12 samples.

Results

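Chemokines and their receptors were followed in sarcomas of p53 knockout mice, in marrow stromal cells labelled as p53 knockout and in wild-type marrow stromal cells. The members were the genes of the deposited stabilized table whose symbols name a numbered ligand (Ccl, Cxcl or Cx3cl) or a numbered receptor (Ccr, Cxcr or Cx3cr), with Cxcl12 left out. They were 54 of 24421 genes, 37 ligands and 17 receptors. The 6 tumors (Tumor) arose in bone or bone marrow of p53 knockout mice, and their cell type is labelled tumor cell, although the protocols describe no sort of tumor tissue. The 3 libraries labelled KO MSC and the 3 WT MSC libraries came from mesenchymal stem cells sorted for LepR and CD140a on the surface and for the absence of CD45, Ter119 and CD31, from p53 knockout and p53 wild-type mice. All 12 samples are labelled as freshly isolated, with no other treatment. Strain, age, the deleted part of the p53 gene and any Cre driver are not in the labels. Nor do they say that each library is a separate animal, and p-values therefore speak of the spread among these libraries, technical or not.

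Chemokines are small secreted proteins, and the spacing of their first cysteines divides them into CC, CXC and CX3C families. They bind receptors that act through G proteins, and cells that carry the receptor move toward the source. CC ligands such as CCL2, CCL7 and CCL12 act mainly on monocytes and macrophages, CXC ligands such as CXCL1 on neutrophils, and CXCL9 and CXCL10 on T cells. In marrow, LepR+ stromal cells are known as a main source of CXCL12, which retains blood stem cells, and in tumors chemokines are studied chiefly for the leukocytes they draw in.

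The values are log2 values on a stabilized scale with a floor near which differences are understated, levels of different genes are not comparable, and the depth of the libraries is unknown. Exactly shared floor values placed tumors 1 to 3, the library labelled KO MSC 1 and WT MSC 1 in batch 1, and the other libraries in batch 2. Genes at the floor numbered 2642 in the library labelled KO MSC 1 and 3736 in WT MSC 1, against 9277 to 12398 in the other libraries. Trp53, the p53 gene, ranged from 6.79 to 9.16 in the tumors, had 10.49, 9.76 and 6.96 in the libraries labelled KO MSC 1, 2 and 3, and 9.96, 10.04 and 10.61 in WT MSC. The libraries labelled KO MSC 1 and 2 thus lay at or near the WT MSC level, against their label, unless the reads came from a part of the gene that was kept. In the MSCs, Lepr lay between 11.63 and 15.60, but neutrophil and erythroid markers were also present (S100a8 10.51 to 12.20 in the libraries labelled KO MSC and 7.39 to 10.44 in WT MSC), and Ptprc, the CD45 gene, had 7.60 in the library labelled KO MSC 1. Results with the KO MSC group are therefore given with this doubt about its labels.

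Of the 54 members, 49 were tested (33 ligands and 16 receptors). Ccl19, Ccl21a and Ccl26 had the common floor value of 4.75 in all 12 libraries, and Cxcl17 and Cxcr1 were also left out because the other deposited table, which served as the filter, does not list them. In the tumors, 31 members lay above the floor in all 6 libraries, against 18 in all 3 libraries labelled KO MSC and 18 in all 3 WT MSC libraries. Between 36 and 44 members lay above the floor in a tumor. In MSCs, the library labelled KO MSC 1 had 45 such members and WT MSC 1 had 44, while the other MSC libraries had 19 to 24. The library labelled KO MSC 1 and WT MSC 1 also had the fewest genes of any kind at the floor, and what part this has in the counts was not tested.

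**Figure D1:**
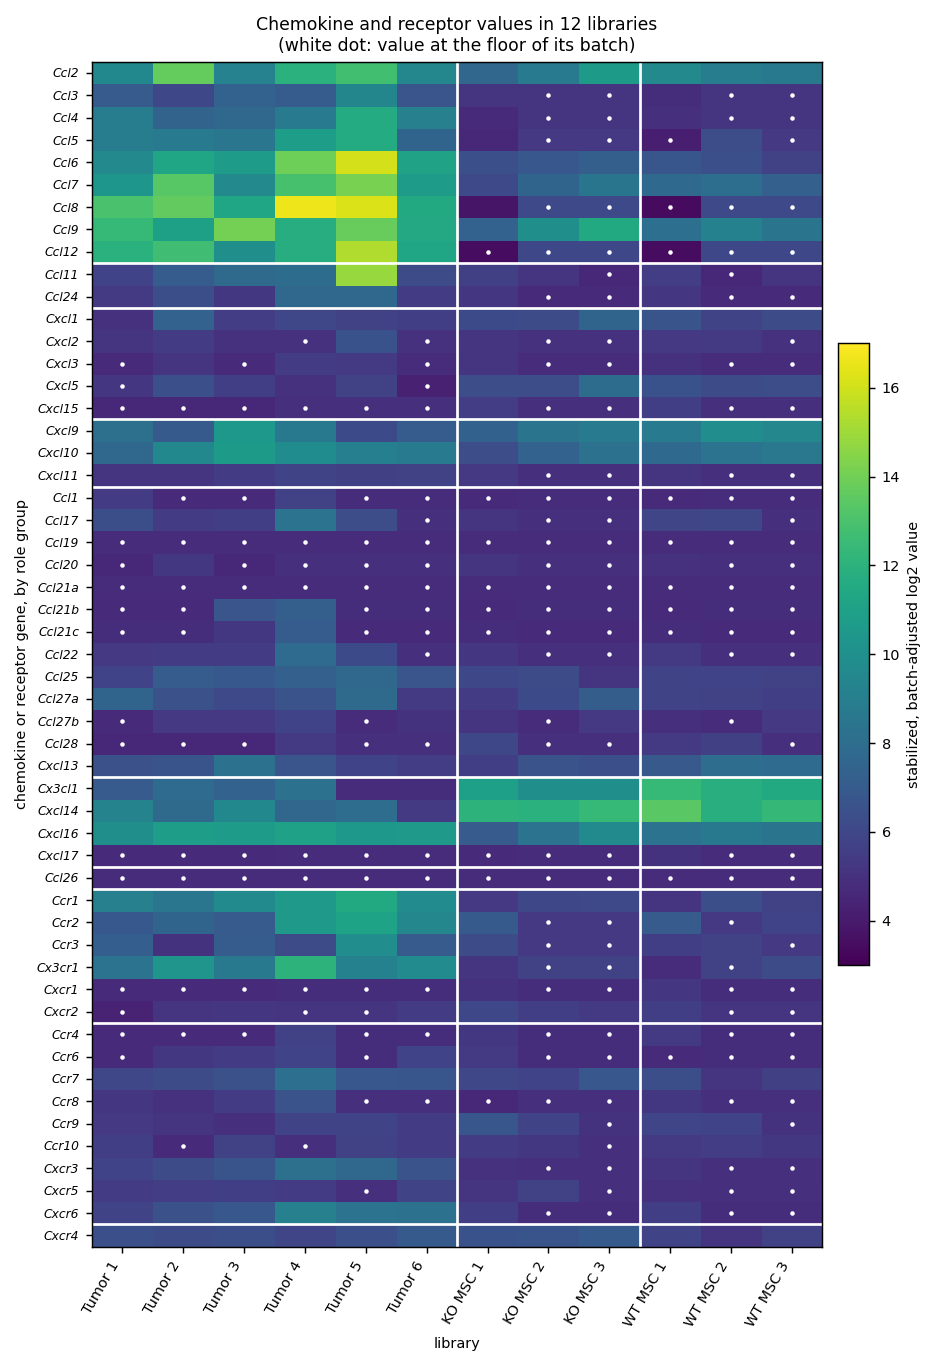
Stabilized log2 value of the members (53 drawn, vertical, grouped by role, with white lines between groups) in 12 libraries (horizontal, tumors left, then the libraries labelled KO MSC, then WT MSC); white dots mark values at the floor of the library's batch. The CC ligands at the top are bright in the tumors and dark in MSCs, Cx3cl1 and Cxcl14 show the opposite, and 30 of the members drawn have no dot in any tumor.

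Against WT MSC, 14 of the 49 tested members were higher in tumors and 2 were lower (limma, Benjamini-Hochberg adjusted p under 0.05 over 18948 genes). Among all genes tested, 10.4% were higher and 10.9% were lower, so that higher calls made up 28.6% of the tested members and lower calls 4.08%. The members higher in tumors included 8 CC ligands grouped here under monocytes and macrophages, Cxcl16, and the receptors Ccr1, Cx3cr1, Cxcr3 and Cxcr6. The members lower in tumors were Cx3cl1 and Cxcl14. The median difference over the tested members was 0.78, against -0.06 over all genes tested. The values of 17 members were higher and those of 2 were lower in every tumor than in every WT MSC library, against 12.9% and 12.3% of all genes. Without WT MSC 1 the test called 8 members higher, and without WT MSC 3 it called 9. All genes called then numbered 1856 and 2268, against 4033 with all libraries. Of the 16 called members, 10 were called whichever single library was left out (Ccl4, Ccl6, Ccl8, Ccl9, Ccl12, Cxcl14, Cxcl16, Cx3cl1, Ccr1 and Cx3cr1). These are bulk libraries, in which more cells of a type and more RNA per cell cannot be told apart.

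Against the libraries labelled KO MSC, 10 tested members were higher in tumors and 2 were lower, where 2.7% and 2.28% of all genes tested were called. All 12 were also called against WT MSC, but both comparisons use the same 6 tumors. The higher members included 6 CC ligands (Ccl4, Ccl5, Ccl6, Ccl7, Ccl8 and Ccl12), Cxcl16, Ccr1 and Cx3cr1. Ccl3 (adjusted p = 0.0753), Ccl9 (0.0986), Cxcr3 (0.0557) and Cxcr6 (0.0706) were called against WT MSC alone, and the difference between the comparisons was not tested. Some other settings, described below, also called them against the libraries labelled KO MSC. These were 3 of 11 for Ccl3, 1 of 11 for Ccl9, 7 of 10 for Cxcr3 and 5 of 11 for Cxcr6. The values of 15 members were higher and those of 2 were lower in every tumor than in every library labelled KO MSC, against 8% and 5.39% of all genes. Without the library labelled KO MSC 1 the test called 2 members higher and 0 lower, and without KO MSC 2 it called 5 higher and 1 lower. All genes called then numbered 113 and 396, against 944 with all libraries. Of the 12, Ccl8 and Ccl12 were called whichever single library was left out.

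**Figure D2:**
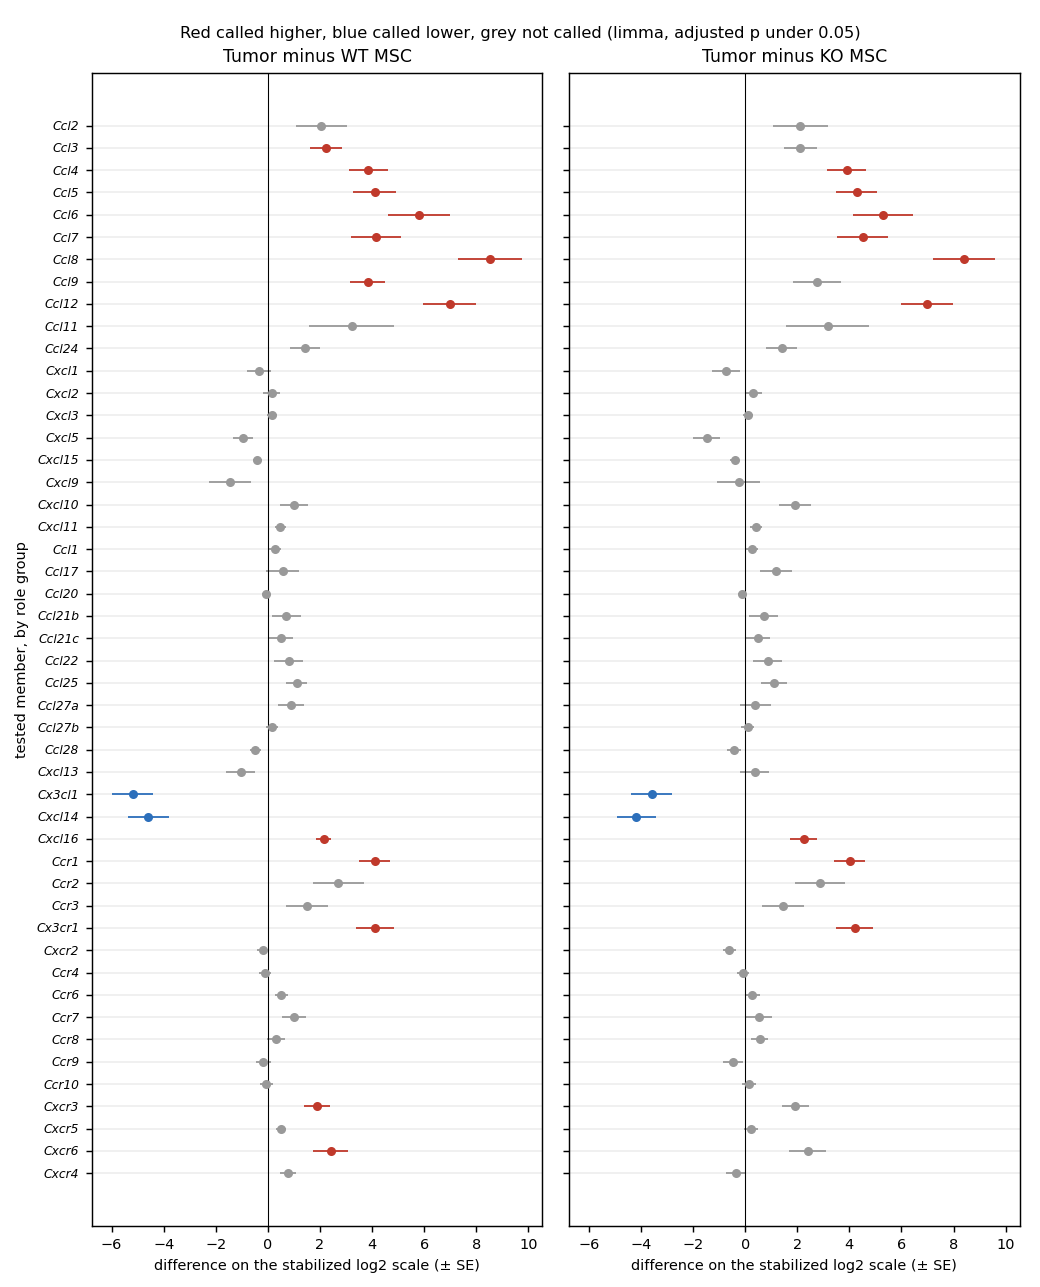
Difference between the mean of 6 tumors and the mean of 3 WT MSC libraries (left) or of 3 libraries labelled KO MSC (right), on the stabilized log2 scale (horizontal, bars ± SE from limma), for the tested members (48 drawn, vertical, by role); red is called higher, blue called lower and grey not called. Ccl8 and Ccl12 lie farthest to the right in both panels, and Cx3cl1 and Cxcl14 farthest to the left.

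Of the 9 CC ligands grouped here under monocytes and macrophages, tumors had 8 higher against WT MSC and 6 against the libraries labelled KO MSC. These are 88.9% and 66.7% of the group, beside 10.4% and 2.7% of all genes tested. The median differences over the group were 4.09 and 4.28. The groups follow listed roles, and which cells a ligand acts on was not tested. Ccl8 ranged in tumors from 11.24 to 16.64 with a median of 13.29, against 3.80, 6.07 and 6.07 in the libraries labelled KO MSC 1, 2 and 3 and 3.44, 6.07 and 6.07 in WT MSC 1, 2 and 3. The MSC values were at the floor except that of the library labelled KO MSC 1, and no tumor came near them. The tumors exceeded WT MSC by 8.52 ± 1.23 (SE, n = 6 and 3; adjusted p = 0.00169, limma) and the libraries labelled KO MSC by 8.40 ± 1.18 (adjusted p = 0.00447). Ccl12, a mouse ligand of the monocyte receptor CCR2, ranged in tumors from 9.98 to 15.35 with a median of 11.86, and was at the floor in all 6 MSC libraries, 3.44 in batch 1 and 6.06 in batch 2. It was 6.98 ± 1.01 above WT MSC (adjusted p = 0.00172) and 6.98 ± 0.99 above the libraries labelled KO MSC (adjusted p = 0.00475). Because the floor of batch 1 minus that of batch 2 was -2.63 for Ccl8 and -2.62 for Ccl12, these differences rest on where the floor was set and are no folds. Within batch 1 and within batch 2 the Ccl8 difference from WT MSC was 9.17 and 8.74, and that of Ccl12 was 8.10 and 6.73.

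Both genes lie in 1 cluster on chromosome 11, and their promoters are shown because these 2 members differed most from the MSCs. The sequences are the 250 bases before the annotated start in RefSeq (GRCm38.p6), 5′ to 3′ on the gene's strand: chr11:82114935-82115184 for Ccl8 and chr11:82101595-82101844 for Ccl12, both on the plus strand, in lower case with matches to TATAAA in capitals.
Ccl8: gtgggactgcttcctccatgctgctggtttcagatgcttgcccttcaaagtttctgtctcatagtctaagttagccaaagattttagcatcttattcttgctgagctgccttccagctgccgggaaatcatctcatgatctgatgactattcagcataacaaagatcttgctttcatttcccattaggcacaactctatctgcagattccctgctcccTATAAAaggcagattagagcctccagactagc
Ccl12: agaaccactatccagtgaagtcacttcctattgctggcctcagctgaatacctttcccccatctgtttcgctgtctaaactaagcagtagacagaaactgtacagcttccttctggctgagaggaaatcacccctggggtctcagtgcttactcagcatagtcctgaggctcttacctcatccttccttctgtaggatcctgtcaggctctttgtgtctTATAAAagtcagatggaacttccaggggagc
The match begins 32 bases before the Ccl8 start and 31 bases before the Ccl12 start. On either strand, TATAAA was found in 12.4% of 32851 RefSeq promoters of this length, and in those of 11 of the 38 members with a promoter in the table. It was searched after the sequences were seen. These 38 members had 45 promoters, and for each motif a member counted if any of its promoters matched. Shares of promoters and counts of members thus have unlike units. In a global alignment 57.6% of 271 columns were identical between the Ccl8 and Ccl12 promoters. The other pairs among the 4 promoters printed here had 47.6% to 49.3%. Also searched on both strands were an NF-kappaB type motif (GGGNN followed directly by TTTCC), an interferon response type motif (GAAANN followed directly by GAAA) and an AP-1 type motif (TGANTCA), and neither promoter held a match. A match or its lack describes these letters alone.

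Ccl6 and Ccl7 were above the floor in every library. Ccl6, a mouse macrophage ligand, ranged in tumors from 9.57 to 16.11 with a median of 11.17, against 6.41, 6.81 and 7.23 in the libraries labelled KO MSC and 6.74, 6.42 and 5.75 in WT MSC. The lowest tumor was above the highest MSC library, and the difference was 5.80 ± 1.20 from WT MSC (adjusted p = 0.00718) and 5.29 ± 1.17 from the libraries labelled KO MSC (adjusted p = 0.0269). Ccl7, another ligand of CCR2, ranged in tumors from 9.59 to 14.20 with a median of 11.80, against 6.11, 7.49 and 8.44 in the libraries labelled KO MSC and 7.77, 8.04 and 7.31 in WT MSC. Here too the groups did not overlap, with differences of 4.15 ± 0.95 from WT MSC (adjusted p = 0.0113) and 4.51 ± 0.99 from the libraries labelled KO MSC (adjusted p = 0.0259). Ccl2, the best known CCR2 ligand, ranged in tumors from 9.19 to 13.66 with a median of 10.72, against 7.61, 8.71 and 10.61 in the libraries labelled KO MSC and 9.61, 8.89 and 8.63 in WT MSC. It was the only 1 of the 9 ligands not called in either comparison. Its tumors overlapped both MSC groups, and the differences of 2.05 ± 0.98 from WT MSC (adjusted p = 0.151) and 2.11 from the libraries labelled KO MSC did not pass.

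Ccl3, Ccl4 and Ccl5 encode ligands of macrophages and T cells, and Ccl3, Ccl5 and Ccl9 encode ligands of CCR1. Ccl4 ranged in tumors from 7.48 to 11.60 with a median of 8.81, against 4.74 to 5.17 over the libraries labelled KO MSC and 4.86 to 5.17 over WT MSC. Ccl5 ranged in tumors from 7.54 to 11.61 with a median of 8.85, against 4.58 to 5.34 over the libraries labelled KO MSC and 4.17 to 6.30 over WT MSC. Ccl3 ranged in tumors from 6.05 to 9.42 with a median of 7.04, against 5.10 to 5.18 over the libraries labelled KO MSC and 4.81 to 5.18 over WT MSC. For these 3 genes 2 of 3 MSC libraries of each group were at the floor, and every tumor was above every MSC library. The differences from WT MSC were 3.86 ± 0.75 for Ccl4 (adjusted p = 0.00538), 4.09 ± 0.84 for Ccl5 (adjusted p = 0.007) and 2.22 ± 0.61 for Ccl3 (adjusted p = 0.0259). From the libraries labelled KO MSC they were 3.90 ± 0.76 for Ccl4 (adjusted p = 0.0176), 4.28 ± 0.79 for Ccl5 (adjusted p = 0.0137) and 2.12 for Ccl3, which was not called. The call of Ccl3 against WT MSC was lost without any 1 WT MSC library, that of Ccl5 without WT MSC 1 and that of Ccl7 without WT MSC 1 or WT MSC 3.

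Ccl9 ranged in tumors from 10.95 to 14.07 with a median of 12.04, against 7.39, 9.99 and 11.49 in the libraries labelled KO MSC 1, 2 and 3 and 8.13, 9.15 and 8.38 in WT MSC. The library labelled KO MSC 3 lay within the tumor range, while all WT MSC libraries lay below it. The tumors exceeded WT MSC by 3.82 ± 0.68 (adjusted p = 0.00373) and the libraries labelled KO MSC by 2.75 (adjusted p = 0.0986), a value that was 1.64 without the library labelled KO MSC 1 (adjusted p = 0.398) and 3.69 without KO MSC 3 (adjusted p = 0.042). Within batches the difference from the libraries labelled KO MSC was 5.07 in batch 1 and 1.55 in batch 2. The promoter of Ccl9 (chr11:83578637-83578886, minus strand, RefSeq GRCm38.p6) is shown because it holds more matches than the others printed, and was chosen after the sequences were seen; capitals mark TATAAA or its reverse complement, TGANTCA, and the reverse complement of the NF-kappaB type motif.
Ccl9: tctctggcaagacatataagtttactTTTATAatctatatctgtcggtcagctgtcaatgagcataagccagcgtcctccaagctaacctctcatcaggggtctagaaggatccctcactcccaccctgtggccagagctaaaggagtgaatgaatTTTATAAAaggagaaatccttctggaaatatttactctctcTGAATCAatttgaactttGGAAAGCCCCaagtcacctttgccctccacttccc
Of its TATAAA matches, 2 on opposite strands overlap. The NF-kappaB type motif was found in 1.41% of all promoters and in those of 6 of 38 members (Ccl9, Ccl20, Ccr3 and the neutrophil ligands Cxcl1, Cxcl2 and Cxcl3), and TGANTCA in 6.75% and in those of 6 of 38.

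**Figure D3:**
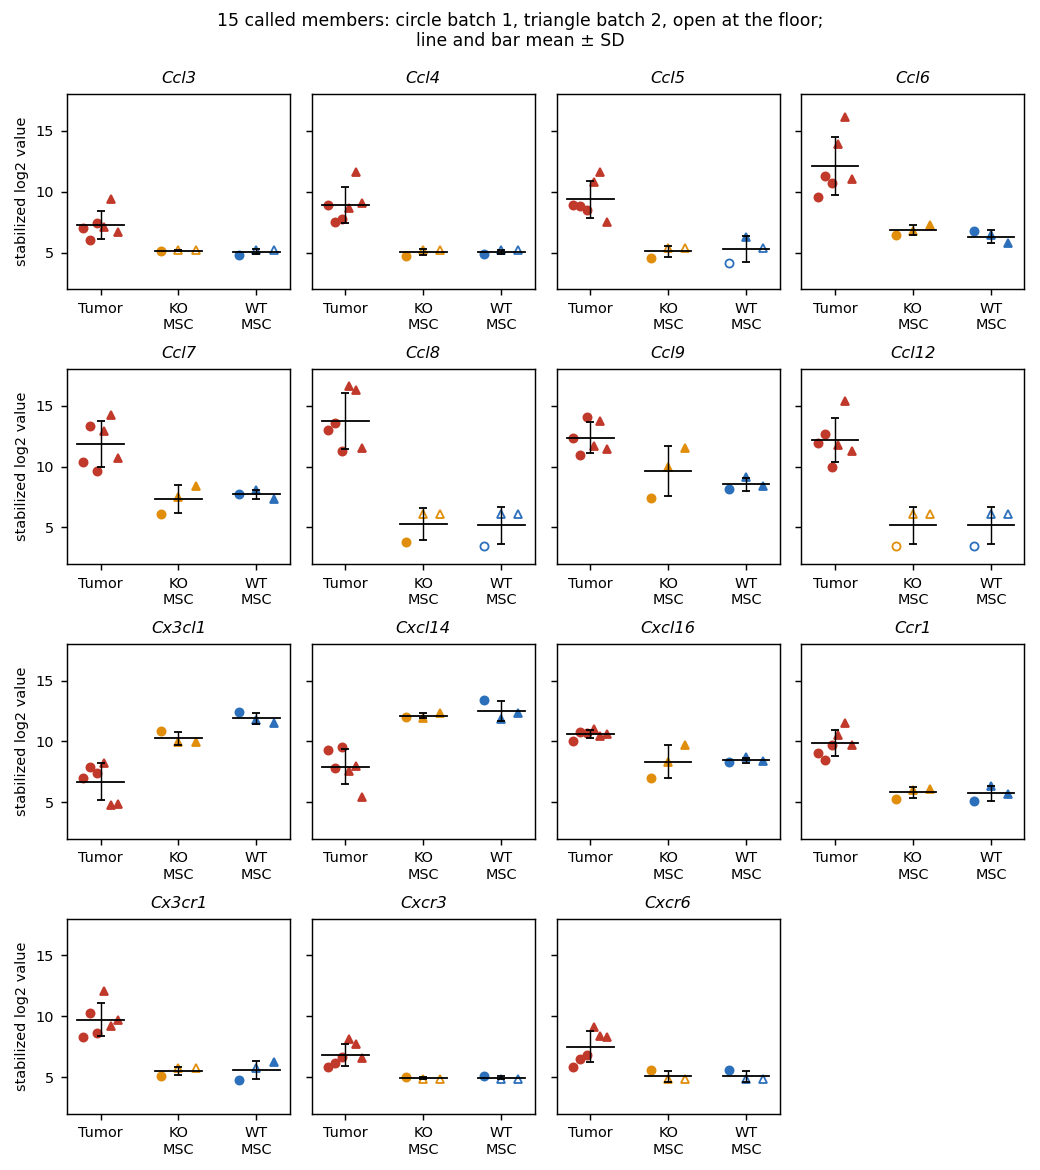
Stabilized log2 value (vertical) of members called in tumors against WT MSC (15 drawn), by group (horizontal, tumors left, then the libraries labelled KO MSC, then WT MSC); circles are batch 1, triangles batch 2, open symbols lie at the floor, lines are means and bars ± SD. In 13 panels all tumors lie above the WT MSC libraries, and in those of Cx3cl1 and Cxcl14 all lie below.

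Markers of macrophages moved with these ligands. Of 12 macrophage markers, 11 were higher in tumors against WT MSC and 11 against the libraries labelled KO MSC. Among all genes tested, 10.4% and 2.7% were higher in these comparisons. The mean level of the list was 10.30 to 14.17 in tumors, 5.82 to 6.78 in the libraries labelled KO MSC and 5.62 to 6.91 in WT MSC. Its defining marker Adgre1, which encodes F4/80, was at the floor in no tumor, in 1 of 3 libraries labelled KO MSC and in 2 of 3 WT MSC libraries, and Csf1r was above the floor everywhere. Endothelial markers were higher too, 7 of 8 against WT MSC and 5 of 8 against the libraries labelled KO MSC, with mean levels of 6.61 to 9.05 in tumors, 4.97 to 5.45 in the libraries labelled KO MSC and 5.01 to 5.52 in WT MSC. The 10 stromal markers of LepR+ cells were all lower in tumors against WT MSC, and 7 were lower against the libraries labelled KO MSC. Among all genes tested, 10.9% and 2.28% were lower. The part of these cell types in the chemokine differences was not tested.

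By position, the 9 ligands fell in 2 clusters on chromosome 11 (mm10 coordinates of GENCODE vM21, where genes up to 200000 bases apart were joined). The first, from 82035571 to 82305690, held Ccl2, Ccl7, Ccl11, Ccl12, Ccl8 and Ccl1 in this order, of which 3 of 6 were higher in tumors in each comparison. The second, from 83525778 to 83664683, held Ccl5, Ccl9, Ccl6, Ccl3 and Ccl4. Of these, 5 of 5 were higher against WT MSC and 3 against the libraries labelled KO MSC. Among all genes tested, 10.4% and 2.7% were higher. Neighbours were not alike throughout, since Ccl1, at the far end of the first cluster, was above the floor in 2 tumors alone and in no MSC library. In the cluster of neutrophil ligands on chromosome 5 (90759360 to 90905938), 0 of 5 members were called. The cluster of CXCR3 ligands on chromosome 5 (92321347 to 92365485) had 0 of 3 called.

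**Figure D4:**
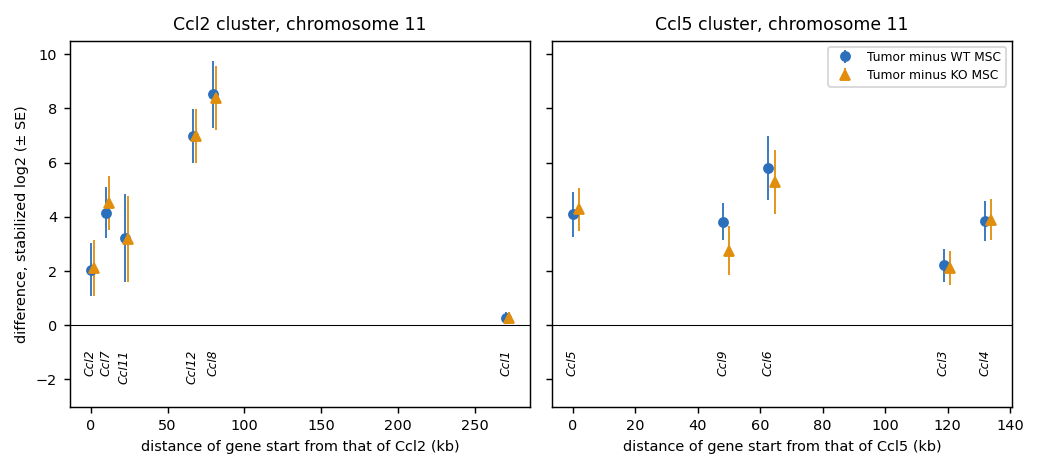
Difference between tumors and WT MSC (blue circles) or the libraries labelled KO MSC (orange triangles, drawn slightly to the right) on the stabilized log2 scale (vertical, ± SE) against the distance of each gene's start from that of Ccl2 (left) or Ccl5 (right) in kilobases. Ccl12 and Ccl8 stand highest in the left panel and Ccl1 lies near 0, while all 5 genes of the right panel lie above 0.

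Other leukocyte ligands were counted by role group, and no group was tested as a whole. Of the 2 eosinophil ligands, 5 neutrophil ligands, 3 CXCR3 ligands and 11 tested ligands of lymphocytes and dendritic cells, 0 were called in either comparison. Ccl11, the eosinophil ligand eotaxin, ranged in tumors from 5.83 to 14.84 with a median of 7.45, against 5.66, 5.13 and 4.55 in the libraries labelled KO MSC and 5.53, 4.55 and 5.16 in WT MSC. Every tumor was above every MSC library, and Tumor 5 stood apart, since the next highest tumor had 7.96. The difference from WT MSC was 3.21 ± 1.63 (adjusted p = 0.172), and without Tumor 5 it was 1.90 (adjusted p = 0.0346). Against the libraries labelled KO MSC it was 3.18, and 1.87 without Tumor 5 (adjusted p = 0.11). Ccl24, another eosinophil ligand, had 5.27 to 7.70 in tumors, 4.75 to 5.24 in the libraries labelled KO MSC and 4.75 to 5.19 in WT MSC, with no call (adjusted p = 0.109 against WT MSC).

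The neutrophil ligands are Cxcl1, Cxcl2, Cxcl3, Cxcl5 and Cxcl15, and most act through CXCR2. Their differences between tumors and WT MSC lay between -0.96 and 0.15, with a median of -0.35, and those from the libraries labelled KO MSC between -1.48 and 0.31. Cxcl5 had 4.31 to 6.41 in tumors, against 6.31, 6.31 and 7.94 in the libraries labelled KO MSC and 6.52, 6.17 and 6.30 in WT MSC. Tumor 2 alone reached these MSC values, and the difference of -0.96 from WT MSC was not called (adjusted p = 0.105). The floor of batch 1 minus that of batch 2 was 0.88 for this gene. With the batch floors set back to the common floor, Tumor 5 (6.14) exceeded the lowest library of each MSC group (5.87 and 6.08). Tumor 2 (5.97) then lay below every WT MSC library. Cxcl15 was at the floor in all 6 tumors and in every MSC library except that labelled KO MSC 1 and WT MSC 1. Markers of neutrophils had mean levels of 5.29 to 7.72 in tumors, 7.79 to 11.40 in the libraries labelled KO MSC and 6.81 to 10.02 in WT MSC. Against WT MSC 2 of 10 were lower in tumors, where 10.9% of all genes tested were. Against the libraries labelled KO MSC 5 of 10 were lower, where 2.28% of all genes tested were. The part of these markers in the ligand values was not tested.

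Among the ligands of CXCR3, a receptor of activated T cells, Cxcl9 and Cxcl10 differed in direction without a call. Cxcl9 ranged in tumors from 6.15 to 10.48 with a median of 7.63, against 7.34, 8.40 and 8.78 in the libraries labelled KO MSC and 8.75, 9.86 and 9.50 in WT MSC. The tumors covered the range of both MSC groups, with Tumor 3 highest, and differed from WT MSC by -1.45, or by -1.96 without Tumor 3 (adjusted p = 0.0419). Within batches its difference from WT MSC was -0.22 in batch 1 and -2.37 in batch 2. Cxcl10 ranged in tumors from 7.73 to 10.62 with a median of 9.30, against 6.29, 7.42 and 8.30 in the libraries labelled KO MSC and 7.78, 8.34 and 8.58 in WT MSC. Its difference was 1.01 from WT MSC (adjusted p = 0.193) and 1.92 from the libraries labelled KO MSC (adjusted p = 0.0938). Exons of Cxcl10 overlap those of Art3 on the other strand, and reads there cannot be told apart without strand. Cxcl11, annotated as a polymorphic pseudogene in GENCODE vM21, stayed between 4.96 and 5.88 in all libraries.

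Ligands of lymphocytes and dendritic cells included several that were above the floor in few libraries. Ccl21b and Ccl21c, near-identical copies whose reads may be divided between them, were above the floor in Tumor 3 and Tumor 4 alone, with 6.67 and 7.21 for Ccl21b and 5.27 and 7.09 for Ccl21c. Ccl17 and Ccl22, ligands of CCR4, were highest in Tumor 4, at 8.34 and 7.88, against 4.91 to 6.36 and 4.87 to 6.15 in the other tumors. In WT MSC Ccl17 had 5.91, 5.96 and 4.91 and Ccl22 had 5.38, 4.87 and 4.87, so that the tumors overlapped WT MSC for both. Cxcl13, the B cell ligand, had 5.55 to 8.21 in tumors, against 5.61, 6.56 and 6.43 in the libraries labelled KO MSC and 6.92, 8.02 and 7.88 in WT MSC. Ccl25, a ligand of CCR9, had 5.79 to 7.73 in tumors, against 5.73 to 5.86 in WT MSC, and was not called (adjusted p = 0.0735). Exons of Ccl25 overlap those of Elavl1 on the other strand, and reads there cannot be told apart without strand. The remaining tested ligands of this group, Ccl1, Ccl20, Ccl27a, Ccl27b and Ccl28, were not called, and Ccl27a and Ccl27b are also near-identical copies.

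The 3 tested members of the remaining ligands were each called in both comparisons. Cxcl16, a membrane-bound ligand of CXCR6 that also binds oxidized lipids, ranged in tumors from 10.00 to 11.03 with a median of 10.65, against 7.02, 8.33 and 9.69 in the libraries labelled KO MSC and 8.32, 8.68 and 8.36 in WT MSC. Its 6 tumors lay closer together (SD 0.35) than those of any other called member, and all lay above the MSCs. The difference was 2.14 ± 0.29 from WT MSC (adjusted p = 0.00152) and 2.24 ± 0.51 from the libraries labelled KO MSC (adjusted p = 0.0307). In batch 1 and batch 2 the difference from WT MSC was 2.17 and 2.17, and that from the libraries labelled KO MSC was 3.47 and 1.68. The call against the libraries labelled KO MSC was lost without any 1 of tumors 2 to 6 and without the library labelled KO MSC 1 or KO MSC 2. Exons of Cxcl16 overlap those of Zmynd15 on the other strand, and the library kit does not mark strand; Zmynd15 had 5.08 to 7.12 in tumors, 4.79 to 5.08 in the libraries labelled KO MSC and 5.51 to 6.19 in WT MSC, which overlapped the tumors.

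Cx3cl1 and Cxcl14 were the members lower in tumors. Cx3cl1 encodes fractalkine, the ligand of CX3CR1, which is anchored in the membrane or shed. It ranged in tumors from 4.78 to 8.21 with a median of 7.21, against 10.88, 9.98 and 9.96 in the libraries labelled KO MSC and 12.40, 11.76 and 11.52 in WT MSC. The 3 groups did not overlap, and Tumor 5 (4.78) and Tumor 6 (4.85) were lowest. The difference was -5.20 ± 0.78 from WT MSC (adjusted p = 0.00196) and -3.58 ± 0.79 from the libraries labelled KO MSC (adjusted p = 0.0264). Cxcl14, a ligand found in many epithelial and stromal tissues, ranged in tumors from 5.40 to 9.55 with a median of 7.91, against 12.04, 11.95 and 12.38 in the libraries labelled KO MSC and 13.42, 11.83 and 12.33 in WT MSC. The MSC groups overlapped each other and lay above all tumors, with differences of -4.59 ± 0.79 from WT MSC (adjusted p = 0.0031) and -4.18 ± 0.75 from the libraries labelled KO MSC (adjusted p = 0.0117). The mean level of the 10 markers of LepR+ stromal cells was 6.93 to 9.33 in tumors, 11.59 to 12.46 in the libraries labelled KO MSC and 12.79 to 13.96 in WT MSC, and its part in these 2 members was not tested.

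The promoter of Cxcl14 (chr13:56296552-56296801, minus strand, RefSeq GRCm38.p6) is set beside those above as that of a member lower in tumors; capitals mark a match to the interferon response type motif.
Cxcl14: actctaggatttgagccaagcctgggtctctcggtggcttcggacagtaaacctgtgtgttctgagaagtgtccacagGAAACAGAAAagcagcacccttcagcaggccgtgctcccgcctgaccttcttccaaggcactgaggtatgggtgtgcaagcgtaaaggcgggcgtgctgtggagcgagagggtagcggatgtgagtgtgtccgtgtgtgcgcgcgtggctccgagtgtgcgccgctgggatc
This motif was found in 2.98% of all promoters and in those of 3 of 38 members, Ccl19, Cxcl10 and Cxcl14. Cxcl10 was not called in tumors, and Ccl19 was not tested.

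Among receptors of myeloid cells, Ccr1 and Cx3cr1 were higher in tumors in both comparisons. Ccr1, a receptor of CCL3, CCL5 and CCL9, ranged in tumors from 8.49 to 11.51 with a median of 9.71, against 5.31, 6.04 and 6.11 in the libraries labelled KO MSC and 5.13, 6.35 and 5.70 in WT MSC. The lowest tumor lay above all MSC libraries, and tumors exceeded WT MSC by 4.11 ± 0.59 (adjusted p = 0.0017) and the libraries labelled KO MSC by 4.01 ± 0.59 (adjusted p = 0.00521). Cx3cr1, the fractalkine receptor of monocytes and microglia, ranged in tumors from 8.34 to 12.08 with a median of 9.46, against 5.12, 5.72 and 5.72 in the libraries labelled KO MSC and 4.79, 5.72 and 6.27 in WT MSC. Tumors exceeded WT MSC by 4.13 ± 0.73 (adjusted p = 0.00362) and the libraries labelled KO MSC by 4.20 ± 0.71 (adjusted p = 0.00913), again with no overlap. The libraries labelled KO MSC 2 and 3 and WT MSC 2 were at the floor for Cx3cr1. Its floor in batch 1, inferred and not seen, minus that of batch 2 was -1.93, so that these differences are no folds. The receptor was thus higher in tumors and its ligand Cx3cl1 lower. Exons of Cx3cr1 overlap the antisense gene Gm33858, whose reads cannot be told apart without strand.

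Ccr2, the receptor of CCL2, CCL7 and CCL12, divided the tumors by batch. It had 6.83, 7.51 and 7.03 in tumors 1 to 3 and 10.56, 11.12 and 9.46 in tumors 4 to 6, against 6.96, 5.33 and 5.33 in the libraries labelled KO MSC and 7.00, 5.33 and 5.81 in WT MSC. Its difference from WT MSC, 2.71 ± 0.97, was not called (adjusted p = 0.0708) and was 0.13 within batch 1 and 4.81 within batch 2. Of 11 other settings, 5 called this difference, and of 9 fits with a library left out, 1 did. Ccr3, the eosinophil receptor, had 5.05 to 9.85 in tumors and 5.35 to 5.77 in WT MSC. Cxcr2, the neutrophil receptor, was not called either.

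Receptors of lymphocytes were higher in tumors in 2 of 9 cases (22.2%) and lower in 0 against WT MSC, where 10.4% of all genes tested were higher and 10.9% lower. The main fit called none of the 9 against the libraries labelled KO MSC, where 7 of 10 other settings called Cxcr3 and 5 of 11 called Cxcr6. The higher share against WT MSC rests on 2 genes, Cxcr3 and Cxcr6. Cxcr3 ranged in tumors from 5.83 to 8.15 with a median of 6.59, against 4.98, 4.89 and 4.89 in the libraries labelled KO MSC and 5.10, 4.89 and 4.89 in WT MSC. Cxcr6, the receptor of CXCL16 on T and natural killer cells, ranged in tumors from 5.87 to 9.12 with a median of 7.53, against 5.61, 4.81 and 4.81 in the libraries labelled KO MSC and 5.60, 4.81 and 4.81 in WT MSC. No tumor overlapped an MSC library for either gene, and the MSC libraries of batch 2 were at the floor. Tumors exceeded WT MSC by 1.88 ± 0.49 for Cxcr3 (adjusted p = 0.0202) and by 2.41 ± 0.68 for Cxcr6 (adjusted p = 0.029), but without any 1 WT MSC library neither call held, and that of Cxcr6 was also lost without Tumor 5 or Tumor 6. The Cxcr6 difference was 0.79 within batch 1 and 3.77 within batch 2.

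Markers of T and NK cells moved in the same direction as these 2 receptors. Among all genes tested, 10.4% were higher in tumors against WT MSC and 2.7% against the libraries labelled KO MSC. Of 9 of these markers tested, 3 (33.3%) and 2 (22.2%) were higher, so that their shares rest on few genes. Their mean level was 6.01 to 7.90 in tumors, 5.10 to 5.65 in the libraries labelled KO MSC and 5.23 to 5.48 in WT MSC, and Cd3e was at the floor in all 6 MSC libraries and in no tumor. Their part in the receptor values was not tested. Ccr7, which guides T cells and dendritic cells to lymph nodes, had 5.99 to 8.13 in tumors, against 5.98, 5.83 and 6.78 in the libraries labelled KO MSC and 6.35, 5.16 and 5.66 in WT MSC, and was not called. The other 6 lymphoid receptors, Ccr4, Ccr6, Ccr8, Ccr9, Ccr10 and Cxcr5, were not called in either comparison.

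Between the libraries labelled KO MSC and WT MSC, 0 of 49 members and 0 of 18948 genes were called by limma, where the lowest adjusted p was 0.551. With unadjusted limma p under 0.05, 1 of 49 members was higher and 3 of 49 were lower, where 2.57% and 6.07% of all genes were. The members were thus near the shares of all genes, and the values that follow set none of them apart. Cxcr4, the CXCL12 receptor, had 6.55, 6.66 and 6.96 in the libraries labelled KO MSC and 5.85, 5.18 and 5.78 in WT MSC, with no overlap and a difference of 1.12 ± 0.38 (adjusted p = 0.551). Tumors had 5.94 to 6.95, and their difference of 0.78 from WT MSC was not called (adjusted p = 0.0855). In the libraries labelled KO MSC, the 3 members lower at unadjusted p under 0.05 were Cx3cl1 (-1.62 ± 0.44, adjusted p = 0.551), Cxcl13 (-1.41 ± 0.52, adjusted p = 0.554) and Cxcl9 (-1.20 ± 0.50, adjusted p = 0.575). Without overlap between the groups, 1 of 49 members was higher (Cxcr4) and 2 were lower (Cx3cl1 and Cxcl13), both below the shares of all genes (6.31% and 8.93%). With library weights in limma, 2 members were called higher (Cxcr4 and Cxcr5) and 3 lower (the same 3 genes), when 2447 genes were called in all. The Trp53 values above limit what this comparison says of p53. The median difference over the 49 members was 0.00, against -0.01 over all genes.

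The 6 tumors differed among themselves in these genes. The largest SDs over tumors were those of Ccl11 (3.32), Ccl6 (2.42), Ccl8 (2.31), Ccl2 (1.94) and Ccl7 (1.89), all CC ligands. Of the 14 members higher in tumors against WT MSC, Tumor 5 had the highest value for 8, Tumor 4 for 5 and Tumor 3 for 1. Tumor 5 was among the top 2 tumors for 12 members and Tumor 4 for 8, while Tumor 1 and Tumor 3 were among the bottom 2 for 8 members each. The mean over the 14 members was 10.98 in Tumor 4 and 11.88 in Tumor 5, against 9.14 to 9.59 in the other 4 tumors. Tumors 4 and 5 are both of batch 2. With the batch floors set back to the common floor, Tumor 5 remained highest for 8 members and Tumor 4 was highest for 4. The mean was then 10.61 in Tumor 4 and 11.51 in Tumor 5, against 9.22 (Tumor 6) to 9.96 (Tumor 2) in the other 4, so that the lead of Tumor 4 was smaller. In the macrophage markers Tumor 4 had the highest mean level (14.17), Tumor 5 had 12.85 and Tumor 6 had 11.95, against 10.30 to 11.45 in tumors 1 to 3. Ccl2 departed from this order, as it was highest in Tumor 2 (13.66). Ccl9 was highest in Tumor 3 (14.07). The replicates have no order, and the labels do not say how the tumors differed in site or histology.

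**Figure D5:**
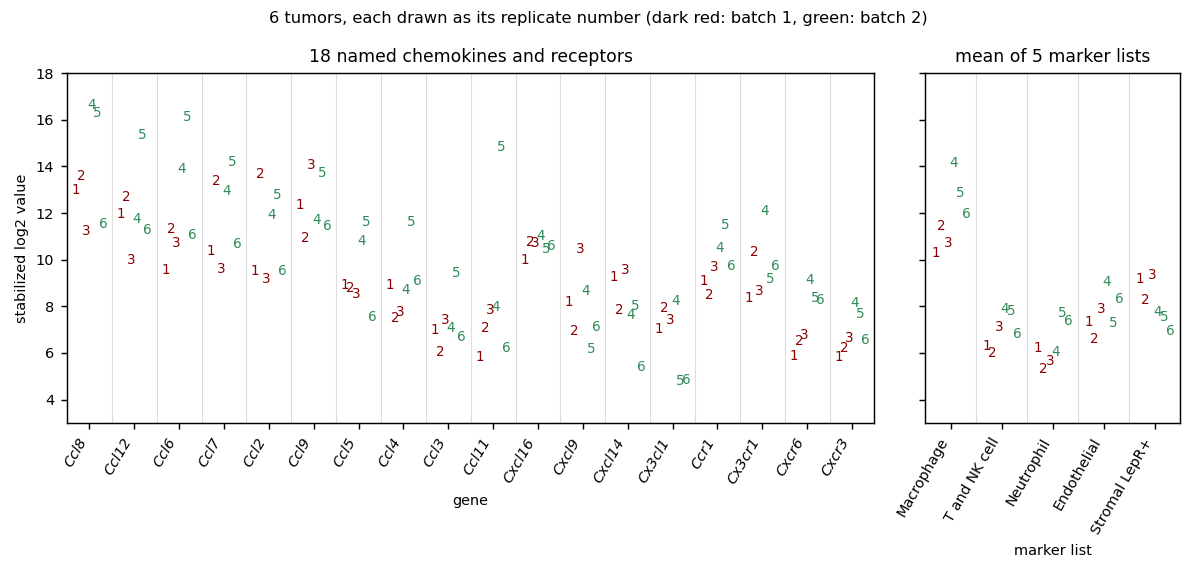
Stabilized log2 value (vertical) of 18 members named with full values (left) and mean level of 5 marker lists (right) in the 6 tumors, each drawn as its replicate number, dark red for batch 1 and green for batch 2. Tumor 5 is at the top for most CC ligands and stands apart for Ccl11 (14.84), and the Cxcl16 values crowd between 10.00 and 11.03.

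Other genes of chemokine signaling, listed with earlier results of these data known, were 41, of which 39 were tested. In tumors against WT MSC 9 were higher and 3 lower, and against the libraries labelled KO MSC 5 were higher and 3 lower. Against WT MSC that is 23.1% higher and 7.69% lower, beside 10.4% and 10.9% of all genes tested, so that the lower share was below that of all genes. Against the libraries labelled KO MSC it is 12.8% and 7.69%, beside 2.7% and 2.28%. Their median difference from WT MSC was 0.52 and that from the libraries labelled KO MSC 0.61. Pf4, a platelet CXC chemokine outside the numbered symbols, averaged 11.85 ± 2.02 in tumors (SD, n = 6), 5.89 ± 0.99 in the libraries labelled KO MSC and 6.61 ± 0.79 in WT MSC (n = 3 each). It exceeded WT MSC by 5.24 ± 1.03 (adjusted p = 0.00573). Cxcl12, which the rule left out, was lower in tumors against WT MSC, with a difference of -7.93 ± 1.01 (adjusted p = 0.00132). Of the atypical receptors, which take up chemokines without signaling through G proteins, Ackr3 was higher (3.40 ± 0.83, adjusted p = 0.015) and Ackr4 lower (-5.40 ± 1.02, adjusted p = 0.00489) against WT MSC. Cmklr1, the chemerin receptor, was higher by 2.68 ± 0.50 (adjusted p = 0.0044), and Gng2, a G protein subunit, by 2.91 ± 0.57 (adjusted p = 0.00544). Against the libraries labelled KO MSC, the 6 genes with the smallest adjusted p were Cxcl12 (-7.37 ± 0.91), Gng2 (3.72 ± 0.45), Pf4 (5.97 ± 1.03), Cmklr1 (2.73 ± 0.55), Rgs2 (2.14 ± 0.43) and Ackr1 (-1.82 ± 0.39). Ackr1, an atypical receptor of many CC and CXC ligands, was not called against WT MSC (adjusted p = 0.77).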

How the data were processed

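RNA of 6 tumors and 6 MSC samples was made into cDNA with the SMART-Seq v4 kit and, per the labels' protocols, into libraries with a NEBNext Ultra DNA kit, a type without strand marking. Exons of 8 members overlap those of another gene (Ccl25, Ccl27a, Ccr9, Cx3cr1, Cxcl10, Cxcl11, Cxcl16 and Cxcr5). Per the submitters' processing notes, the tools were Cufflinks 2.2.1, Cuffdiff and TopHat2 2.0.13, on build mm10. How the tables were made from there is not given in the sources used here. Stabilized values: the log2 values that the authors deposited are titled as variance-stabilized and batch-adjusted. The authors' other deposited table holds a score and not counts: in 100% of its 18949 genes it equals the stabilized value times 100, rounded, over a factor that is constant within a library (tolerance 0.01). Library depth is therefore unknown, counts could not be recovered, and no counting interval is given.

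Floors were the values that libraries shared exactly (tolerance 1e-06), and 545 or more shared values joined libraries of a batch, against at most 1 across batches. For 9803 genes with a floor in both batches, both lay equally far from the common floor in 100%. For each comparison, limma 3.58.1 (R 4.3.3) was run on the libraries of those groups alone (lmFit, eBayes with a trend, two-sided, no batch term or block) over the 18948 genes of the score table that varied, with Benjamini-Hochberg adjustment. The fit was tested on simulated data. Members, lists, role groups and motifs were chosen with earlier results of these data known. Values are given for members called in any comparison, those with the 5 highest means in a group and the 5 largest SDs among tumors, 19 in all, of which 1 is counted but not reported here; others follow the role groups, and Ccr2, Cxcl10, Ccl17, Ccl21b and other members outside that rule were named after their values were seen. The alternatives, beside leaving out each library, were 11: a batch term, the replicate block, no filter, a mean of at least 6, the score table, quantile and upper-quartile scaling, library weights, 1 fit on all 3 groups, batch 2 alone, and, added after the data were seen, batch floors set back to the common floor.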

Additional observations from a re-analysis of the deposited data

Results flagged for a closer look

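In each tested member the highest and the lowest of the 6 tumors were compared with the nearest tumor, and 8 of 98 such gaps were larger than 0.625 of the range of the group. Chance flags about 1 in 20 groups of normally spread values, and the members share tumors. This rate does not hold where several tumors lie at the floor. Tumor 5 stood apart at the high end for Ccl11, at 14.84 where the next tumor had 7.96, and for Cxcl2, at 6.55. Tumor 4 stood apart at the high end for Ccl21c (7.09), Ccl28 (5.40), Ccr4 (5.69), Ccr7 (8.13) and Ccr8 (6.60), all ligands or receptors of lymphocytes or dendritic cells. For Ccl28 and Ccr4 it was the only tumor above the floor, and for Ccl21c only 2 of 6 tumors were, so that these flags rest on the floor. Tumor 1 stood apart at the low end for Cxcr2, at 4.41, which is the floor of batch 1. With the batch floors set back to the common floor, the gap of Ccl11 was 0.73 of the range, that of Ccl21c 0.83, those of Ccl28 and Ccr4 the whole range (1) and that of Ccr7 0.63, while those of Ccr8 (0.45), Cxcl2 (0.36) and Cxcr2 (0) fell below the limit.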

How the results depend on the processing

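Against WT MSC, library weights raised the count of members higher in tumors from 14 to 23, and batch 2 alone gave 4 higher and 0 lower. Leaving out each library in turn gave 8 to 16 higher and 2 to 3 lower members. Against the libraries labelled KO MSC, where the count was 10 higher and 2 lower, library weights gave 16 higher, batch 2 alone gave 0 higher and 0 lower, and leaving out each library gave 2 to 12 higher and 0 to 2 lower. Between the libraries labelled KO MSC and WT MSC, library weights called 2 members higher and 3 lower, against 0 and 0, and leaving out each library gave 0 to 0. The cause was not tested, except that batch 2 alone and left-out libraries leave fewer samples. Apart from these and the replicate block described next, the settings tried kept these counts within 1.5 times, no result changed sign among called values, and Cxcl16 against WT MSC was called in all 11 settings. Upper-quartile scaling moved the median of all genes from -0.06 to 0.05 for tumors against WT MSC and from -0.01 to 0.09 for the libraries labelled KO MSC against WT MSC. The calls over all genes moved too. Against WT MSC 4033 genes were called, 6821 with library weights, 540 in batch 2 alone and 1856 without WT MSC 1. Against the libraries labelled KO MSC 944 were called, 4821 with library weights, 27 in batch 2 alone and 113 without KO MSC 1.

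The labels do not say that same-numbered samples are paired. The correlation of same-numbered deviations was -0.32, -0.09 and 0.01 for tumors with WT MSC. It was -0.22, -0.07 and 0.22 for tumors with the libraries labelled KO MSC, and 0.24, 0.15 and -0.15 between the MSC groups. So few values cannot show whether samples were paired. With the replicate block, 10 members were higher and 2 lower against WT MSC, when 1445 genes were called in all, against 4033 without the block. Against the libraries labelled KO MSC 1 was higher and 0 lower, when 34 genes were called in all, against 944 without it. Between the MSC groups 0 were called in either direction.

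Depth is unknown, and the stabilized scale understates differences near the floor. Of 54 members, 38 were given a floor in both batches. Where libraries shared a floor in 1 batch alone, the other floor was set equally far from the common floor. The floors were over 1 apart for 6 members (Ccl5, Ccl8, Ccl12, Ccr2, Ccr3 and Cx3cr1). For Ccr2, Ccr3 and Cx3cr1 no library of batch 1 was at its floor, so that this floor was inferred and not seen. The authors' batch adjustment is not reflected in the p-values. The doubt about the labels of the libraries labelled KO MSC 1 and 2 touches each comparison with that group.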
